A study of Mus musculus with 14 samples.

Results

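Type II-like spiral ganglion neurons of the embryonic and newborn mouse cochlea were described across the transcriptome. Members were cells of the E16, E18 and P1 libraries (embryonic days 16 and 18, postnatal day 1) with a value above 0 for at least 3 of the 6 genes Efna5, Gpr22, Tac1, Rnase4, Oprk1 and Plk5 in the normalized table. This gave 114 members among the 3804 cells of these ages and among the 5441 cells of the whole series. They were set against 2521 cells of the same libraries with none of the 6 genes above 0, called none cells here. Because the 6 genes chose the cells, their levels are given as a description with no test.

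Spiral ganglion neurons carry sound information from the hair cells of the cochlea to the brainstem. Most are type I neurons, with myelinated axons that contact inner hair cells, and they are divided into subtypes for which Calb2 (type IA), Calb1 (type IB) and Pou4f1 (type IC) are common markers, while Lypd1 marks both type IB and type IC neurons in the gene lists used here. A small minority are type II neurons, whose thin unmyelinated processes run along rows of outer hair cells. The intermediate filament gene Prph and, in the postnatal cochlea, the tyrosine hydroxylase gene Th are widely used to mark them.

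All cells came from CD1 mice, and no treatment or genetic change is given in the labels. At E16 the ganglia were cut through the middle turn, which gave 3 apical and 3 basal libraries, while E18 (3 libraries) and P1 (2 libraries) were whole ganglia. Each replicate pooled tissue of several animals, with separate litters at the embryonic ages. The dissected tissue still carried pieces of sensory epithelium and mesenchyme. Trypsin was used to free the cells at E16 and papain at both later ages, and the cells were profiled with a droplet kit that reads the 3′ ends of transcripts. Age and enzyme therefore cannot be told apart. The 11 libraries were treated as 8 biological replicates, because the apical and basal cells of 1 replicate number at E16 were summed. Basal cells made up 9 of 10 members and 111 of 331 none cells in E16 replicate 1. They made up 4 of 11 and 360 of 733 in replicate 2, and 26 of 36 and 234 of 523 in replicate 3. In these E16 sums class and position are thus not fully separate. The E14 libraries (1637 cells) were counted apart, and they held no member: 0 of 1637 cells, which allows a share of up to 0.183% by a limit of 3 counts and up to 0.225% by the exact 95% binomial interval. In these libraries 12 E14 cells had 2 of the 6 genes.

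The members were few in every library. Apical E16 libraries held 1, 7 and 10 members, basal E16 libraries 9, 4 and 26, E18 libraries 22, 9 and 8, and P1 libraries 8 and 10. Among the 114 members, 49 had exactly 3 of the 6 genes, 32 had 4, 20 had 5 and 13 had all 6. Just outside the rule, 234 cells had 2 of the genes and 935 had 1. The E16 members stood nearer to the threshold, with 32 of 57 at exactly 3 genes, against 12 of 39 at E18 and 5 of 18 at P1. The rule asks for detected transcripts, and members were deeper than none cells, with a median of 8693 against 5907 UMIs (unique molecular identifiers, each 1 counted transcript). The ratio of median UMIs ran from 1.09 in P1 replicate 1 to 1.92 in E16 replicate 1, where apex and base were joined. Within single libraries the ratio ran from 1.08 (apical E16 replicate 1, 1 member) to 1.39 (E18 replicate 2), with 1.20 in basal E16 replicate 1. The comparison of members with none cells was therefore repeated with 342 none cells of the same libraries matched on UMI count. No doublet caller was run. More than 2 times the median UMI count of the own library was seen in 1 of 114 members and 15 of 2521 none cells, and 6 barcodes occurred in more than 1 library of the series (12 cells).

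Gpr22, an orphan G protein-coupled receptor gene, was the rule gene seen in most members (99 of 114). Efna5, which encodes the membrane-anchored ligand ephrin-A5, was seen in 93, and Tac1, which encodes the precursor of substance P and neurokinin A, in 89. The ribonuclease gene Rnase4 was seen in 73 members, the kappa opioid receptor gene Oprk1 in 56 and the polo-like kinase gene Plk5 in 43. Efna5 and Gpr22 occurred together in 82 members and Gpr22 with Tac1 in 77, whereas Oprk1 and Plk5 shared 22. The most frequent combination was all 6 genes (13 cells), followed by Efna5, Gpr22 and Tac1 alone (11 cells).

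Levels of these genes are given as CPM, counts of a gene scaled to a total of 1000000 UMIs in the summed members of a replicate. Tac1 reached 265.5 CPM ± 115 (SD, n = 8), from 77.6 in E16 replicate 2 to 460 in E18 replicate 1, with a median of 273. Gpr22 was at 267 ± 105 and Efna5 at 244 ± 126. Plk5 was at 36.4 ± 10.8 CPM in the 3 E16 replicates and at 148 ± 79.1 in the 5 replicates of E18 and P1, whose ranges of 25.1 to 46.5 and 57.5 to 274 did not overlap. Tac1 averaged 158 CPM at E16 and 329.8 later, Gpr22 173 and 324, and Rnase4 76.9 and 144. Oprk1 went the other way, with 97.7 CPM at E16 and 60.8 at E18 and P1, and its ranges overlapped. All of these are genes of the rule, so no test was made.

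In the mm10 build (GENCODE M21 annotation), Efna5 lies on chromosome 17 from 62604184 to 62881317 (minus strand), Gpr22 on chromosome 12 from 31706867 to 31713947 (minus strand) and Tac1 on chromosome 6 from 7554879 to 7565834 (plus strand). Rnase4 lies on chromosome 14 from 51091077 to 51106151 and Plk5 on chromosome 10 from 80356459 to 80365489, both on the plus strand. Oprk1 lies on chromosome 1 from 5588466 to 5606131 (plus strand). The label markers outside the rule are Th, on chromosome 7 from 142892752 to 142931128 (minus strand), and Prph, on chromosome 15 from 99055174 to 99058978 (plus strand). All 8 are protein-coding genes.

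Members made up 3.00% of the E16 to P1 cells (114 of 3804, exact 95% binomial interval 2.48% to 3.59%, which covers counting error only). At E16 the replicates held 1.78%, 1.09% and 3.98% members. At E18 they held 5.84%, 2.79% and 4.94%, and at P1 3.04% and 4.98%. The mean was 4.32% ± 1.33 (SD, n = 5) at E18 and P1 and 2.28% ± 1.51 (n = 3) at E16, and the ranges overlapped (exact two-sided permutation test, p = 0.107, where the smallest possible p is 0.0357). After thinning each cell to 3000 UMIs, the later replicates held 1.52% to 3.71% members and the E16 replicates 0.179% to 1.34%. These ranges did not overlap (exact permutation test, p = 0.0357, the smallest this design can give), although E16 replicate 2 lost 329 of its 1010 cells to the depth limit. At 5000 UMIs the later replicates held 2.37% to 6.72% and the E16 replicates 0.456% to 2.73%, which overlapped (exact permutation test, p = 0.0714), and E16 replicate 2 and E18 replicate 2 lost 571 and 204 cells. With at least 4 of the 6 genes as the threshold and no thinning the p was also 0.0714 by the exact permutation test (3.04% against 1.03%). With 2 of the 6 genes as the threshold the order turned, to 8.60% at E18 and P1 against 9.99% at E16 (exact permutation test, p = 0.464).

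Within the E16 ganglion, members were 0.305%, 1.29% and 2.02% of the apical cells and 3.83%, 0.858% and 6.36% of the basal cells. The means were 1.20% ± 0.859 (SD, n = 3) at the apex and 3.68% ± 2.75 (n = 3) at the base. The basal library of replicate 2 lay inside the apical range (exact two-sided permutation test of the means, p = 0.3, smallest possible p 0.1). Thinned to 3000 UMIs, 2 of 3 apical libraries held no member and the third held 0.411%, against 0.427%, 1.99% and 2.46% at the base (exact permutation test, p = 0.1). The basal library of replicate 2 kept only 151 of its cells at this depth. At 5000 UMIs the apical libraries held 0.541%, 0.467% and 1.24% and the basal libraries 1.30%, 0% and 4.36% (exact permutation test, p = 0.6), where basal replicate 2 kept only 11 cells. So the separation seen at 3000 UMIs was not seen at 5000. With apex and base paired by replicate number, an alternative added after the data were seen, the base was higher in 2 of 3 pairs without thinning, in 3 of 3 at 3000 UMIs and in 2 of 3 at 5000 UMIs. The exact two-sided permutation p within pairs was 0.5, 0.25 and 0.5, where 0.25 is the smallest possible. None of these tests could reach 0.05. Each share is of cells that passed dissociation and capture, so a share is not the share in the ganglion.

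**Figure D1:**
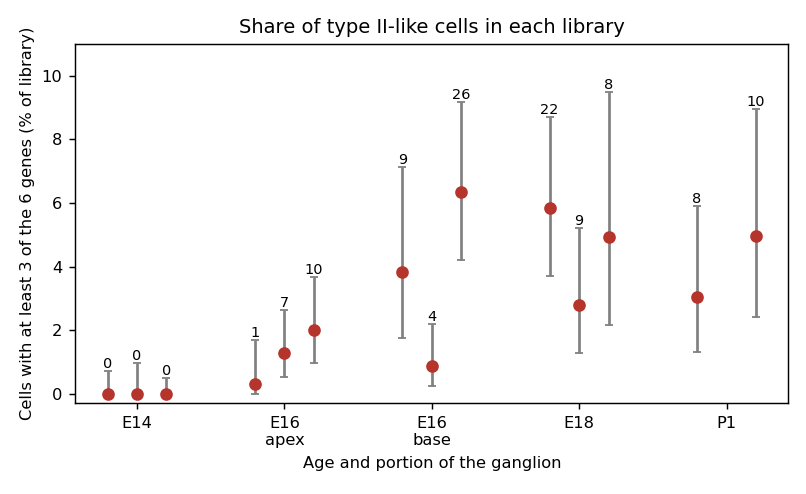
Share of cells with at least 3 of the 6 rule genes (percent of the library's cells, y axis) in each of the 14 libraries, grouped by age and, at E16, by portion of the ganglion (x axis). Points are libraries, bars are exact 95% binomial intervals and the numbers above them count the members; the E14 libraries sit at 0, and the basal E16 libraries spread from 0.858% to 6.36%.

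Th and Prph, which the rule did not use, were read for the label. Members and gene lists were chosen with earlier results of these data known, so Th and Prph are not an independent check. Th, which encodes the rate-limiting enzyme of catecholamine synthesis, had a UMI in 41 of 114 members (36.0%) and in 6.07% of none cells. Its level in the members was 37.5, 15.5 and 50.2 CPM at E16, 125, 53.7 and 299 CPM at E18, and 223 and 179 CPM at P1. In the none cells of the same replicates it ran from 8.28 to 17.0 CPM. Members were higher in 8 of 8 replicates, and the only overlap came from E16 replicate 2, where 1 UMI in 11 members gave the 15.5 CPM. The log2 difference was 3.11 ± 0.26 (SE; edgeR quasi-likelihood test, adjusted p = 8.10e-17), and 3.21 against none cells matched on UMI count. With all cells at 3000 UMIs, 17.7% of members and 2.96% of none cells had a Th UMI. Of the 8 fits that left out 1 replicate, Th entered 6 and passed in each of the 6.

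Prph separated the groups less sharply. It was seen in 83 members (72.8%) and in 37.4% of none cells, and at 3000 UMIs in 54.0% and 27.8%. Member levels ran from 279 to 738 CPM with a median of 301, and the highest was E18 replicate 1. None cells ran from 127 to 284 CPM, so the ranges touched, yet members were higher in 8 of 8 replicates (log2 difference 0.80 ± 0.11 SE, edgeR adjusted p = 1.75e-08). Against only the none cells with Calb2 and no Lypd1, a reference described below, Prph did not pass, so its difference depended on the reference. Both Th and Prph were found in 34 members, Th alone in 7, Prph alone in 49 and neither in 24. Of the 24 members with neither, 14 were from E16.

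Th and Lypd1 were also read by the number of rule genes in the cell, as a description over pooled cells of all replicates. Th was at 11.5, 14.6 and 12.3 CPM in cells with 0, 1 and 2 of the genes, at 52.0 and 94.2 CPM with 3 and 4, and at 163 and 244 CPM with 5 and 6. Lypd1 went down over the same steps, from 697 CPM with none of the genes to 393, 111 and 56.9 CPM with 1, 2 and 3, and it was at 0 in the 13 cells with all 6. Cells with 2 rule genes were thus near none cells in Th but already lower in Lypd1. Depth and age changed over these steps too. The median rose from 5907 UMIs with none of the genes to 10448 with all 6, and E16 gave 32 of the 49 cells with 3 genes but 2 of the 13 with all 6. Within E16 alone, Th was at 12.1 CPM with 2 genes, 19.6 with 3, 70.3 with 4 and 78.3 with 5, and no Th UMI was found in the 2 cells with 6. At E18 and P1 it was at 12.9 CPM with 2 genes, 108 with 3, 113 with 4, 226 with 5 and 281 with 6. Lypd1 was lower with 3 genes than with none at both, 39.1 against 725 CPM at E16 and 87.5 against 663 CPM later.

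**Figure D2:**
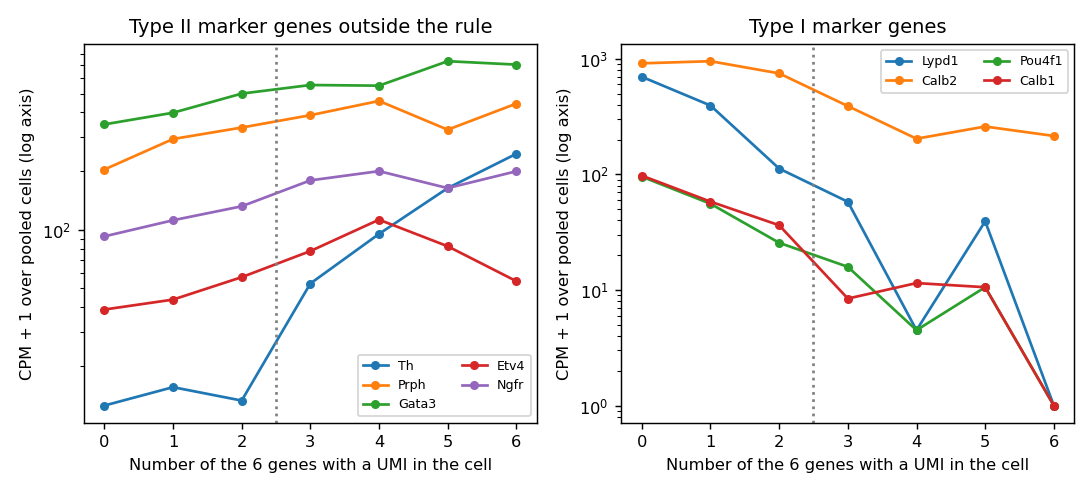
Level (CPM + 1 over pooled cells, log axis) of 5 type II marker genes outside the rule (left) and 4 type I marker genes (right) by the number of rule genes with a UMI in the cell (x axis, 0 to 6); the dotted line marks the threshold of 3. Th stays between 11.5 and 14.6 CPM up to 2 genes and reaches 244 CPM with 6, while Lypd1 goes from 697 CPM to 0; ages are pooled, and E16 gave 32 of 49 cells with 3 genes and 2 of 13 with 6.

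To ask which other genes distinguish these cells, UMI counts were summed per replicate and class and compared with edgeR, with the replicate as a block. Of 7098 genes tested, 644 passed an adjusted p of 0.05 (9.07%), 302 of them higher in members (4.25%) and 342 lower (4.82%). Genes of the type II list outside the rule stood mostly on the higher side. Of its 14 measured genes, 8 could be tested, and 7 were higher and none lower, with a median log2 difference of 1.10 against -0.03 over all genes tested. The list holds Th and Prph and was chosen with earlier results of these data known, so this count is a description and not independent support. A gene had to reach the count filter in enough of the 16 sums, so one that is high only in members entered only where nearly every member sum held it. Against UMI-matched none cells, 522 of the same genes passed, and 453 of the 644 kept their call and sign. Without the replicate block 192 passed, all among the 644. With the 11 libraries as units, so that apex and base stayed apart, 609 of 6830 genes passed. Of the 644, 574 kept their call and sign in that fit, an alternative added after the data were seen.

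The other type II list genes that were higher include transcription factors of inner ear neurons. Gata3, a zinc finger factor needed for spiral ganglion development, was at 594 CPM ± 120 (SD) in members and 276 ± 207 in none cells, higher in 8 of 8 replicates (log2 1.20). The corepressor gene Tle4 did not overlap between classes, with 572 to 1110 CPM in members and 180 to 521 CPM in none cells (log2 1.13). The ETS factor gene Etv4 (log2 1.40) and Ngfr, which encodes the neurotrophin receptor p75 (log2 1.06), were higher as well.

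Markers of type IB and IC neurons were lower. Of 11 measured list genes, 7 were tested, 5 were lower (Lypd1, Calb1, Runx1, Pou4f1 and Ntng1) and none higher, with a median log2 difference of -3.08. Lypd1 was at 0 in 3 of 8 member sums and reached at most 119 CPM (P1 replicate 2), against 528 to 870 CPM in none cells (log2 -4.60 ± 0.20 SE, edgeR adjusted p = 8.34e-32). Calb1, which encodes the calcium buffer calbindin, had 8 UMIs in all members together. Of the 6 type IA genes tested, the protocadherin gene Pcdh20 was higher (log2 2.06) and Calb2 lower (log2 -1.88), while Mdga1, Rxrg, B3gat1 and Slc17a6 did not pass. Calb2, which encodes calretinin, was nevertheless seen in 51 of 114 members.

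**Figure D3:**
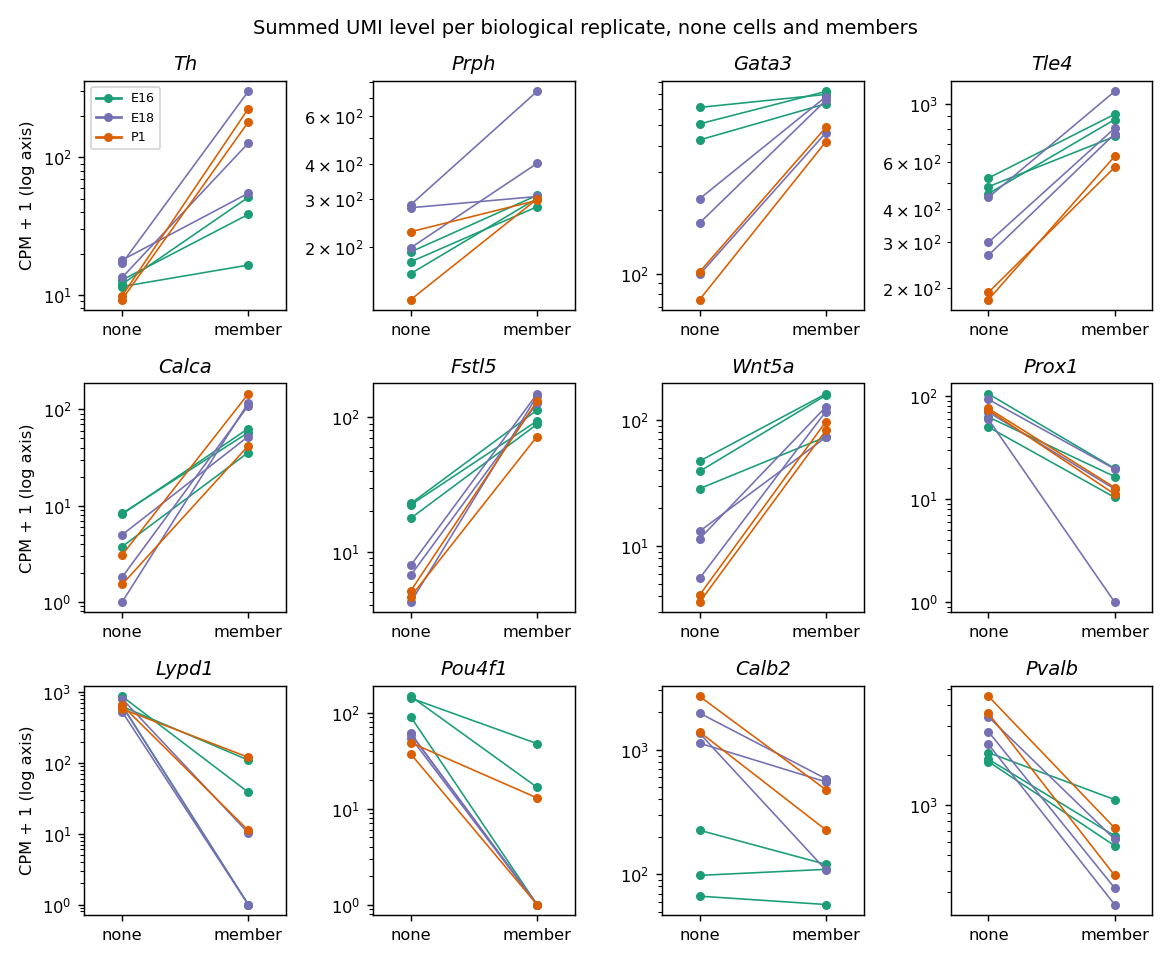
Summed level (CPM + 1, log axis) of 12 genes in none cells and members of each of the 8 biological replicates; a line joins the classes of 1 replicate and colours give the age. Th, Prph, Gata3, Tle4, Calca, Fstl5 and Wnt5a go up in 8 of 8 replicates, Prox1, Lypd1, Pou4f1 and Pvalb go down in 8 of 8, and sums of 0 sit at 1.

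The 15 largest higher differences included Calca, Edn1, Nog, Wnt5a and Fstl5. Calca, the gene of the neuropeptide CGRP, was at 34.5 to 143 CPM in members, with a median of 59.1, and at 0 to 7.30 CPM in none cells. The groups did not overlap (log2 4.13 ± 0.37 SE, edgeR adjusted p = 2.46e-15). Edn1, which encodes the peptide endothelin-1, was at 48.4 CPM against 4.70 (log2 3.15), Nog, the gene of the BMP antagonist noggin, at 57.3 against 8.14 (log2 2.82), and Wnt5a, a non-canonical Wnt ligand, at 109 against 18.1 (log2 2.45). The follistatin-like gene Fstl5 was at 114 CPM ± 27.9 in members and 10.5 ± 8.14 in none cells (log2 3.21 ± 0.26 SE, adjusted p = 2.01e-17), again with no overlap.

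The same group held Iqgap2, F2r, Rprm and Necab1. Iqgap2, which encodes a scaffold protein of the cytoskeleton, showed the largest difference by the naming rule: 31.0 to 138 CPM in members, with a median of 73.3, against 0 to 10.5 CPM in none cells (log2 4.29 ± 0.37 SE, edgeR adjusted p = 5.91e-16). F2r, the gene of the thrombin receptor PAR1, was at 289 CPM against 46.4 (log2 2.53), and Rprm, a gene of the p53 pathway, at 403 against 97.5 (log2 1.92). Necab1, a neuronal calcium-binding protein gene, was at 156 against 38.6 CPM (log2 2.01). Prune2 (log2 2.55), Tmem56 (2.56) and Abhd2 (1.95) were also in the group. The genes named here passed in every fit that left out 1 replicate.

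The 15 largest lower differences include the homeobox gene Prox1, which is expressed by spiral ganglion neurons. Prox1 was at 0 to 18.8 CPM in members, with a median of 11.7, and at 48.8 to 104 CPM in none cells (log2 -2.55 ± 0.29 SE, edgeR adjusted p = 2.56e-11), and the transcript on its opposite strand, Prox1os, was lower too (log2 -2.62), although reads of such a pair may not be told apart if strand was not used. Cdk14, a cyclin-dependent kinase gene, was at 10.2 against 165 CPM (log2 -3.94), and the transcription factor genes Bhlhe22 and Runx1 were lower by log2 -3.11 and -3.08. Kcna1, which encodes a voltage-gated potassium channel, had a median of 0 CPM over the member sums and at 36.2 to 77.5 CPM in none cells (log2 -2.92). Pvalb, the gene of the calcium buffer parvalbumin, was at 573 CPM ± 266 in members and 2788 ± 956 in none cells (log2 -2.32). The growth factor gene Fgf10 (log2 -2.39), Anxa5 (-2.52), Cd302 (-2.45), Pcsk5 (-2.34) and Trhde (-2.27) were also lower.

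**Figure D4:**
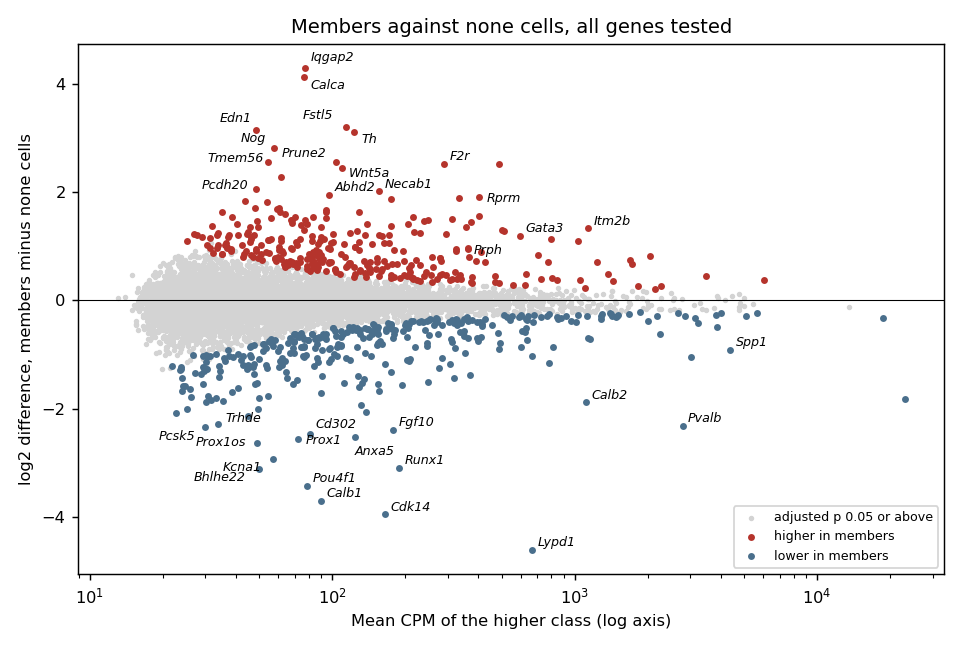
Difference between members and none cells (log2, y axis) against the mean CPM of the higher class (x axis, log) for the 7098 genes tested; red and blue points passed an adjusted p of 0.05 and grey points did not. Genes among the largest differences in each direction by the naming rule are named, beside Prph, Gata3, Calb2, Itm2b and Spp1, with Iqgap2 (4.29) and Lypd1 (-4.60) at the extremes.

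Genes of peptide and catecholamine signalling were examined because the rule and the label hold such genes. Of 26 neuropeptide and peptide receptor genes in the table only Calca and the nociceptin receptor gene Oprl1 were tested, and Calca was the one that passed. For catecholamines 6 of 16 genes were tested. Besides Th, the tetrahydrobiopterin synthesis gene Spr was higher (63.8 against 42.8 CPM, log2 0.61), whereas Pts and Qdpr of the same cofactor pathway were lower (log2 -0.70 and -0.64). Pcbd1 did not pass, and Ddc, Dbh, Slc18a2 and 7 more genes of the list did not enter the test. The calls of Spr and Qdpr were lost in 5 and 6 of the 8 fits that left out 1 replicate.

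Several receptor genes for target-derived growth factors were higher. In the list of neurotrophin and GDNF family receptors 3 of 6 tested genes were higher and none lower, with a median log2 difference of 0.75. These were Ngfr (172 against 79.2 CPM), the GDNF receptor gene Gfra1 (98.3 against 48.5) and the neurturin receptor gene Gfra2 (56.2 against 15.6). Ntrk2 and Ntrk3, the TrkB and TrkC genes, were at 213 against 156 CPM and 319 against 280 CPM and did not pass (edgeR adjusted p = 0.087 and 0.525).

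Guidance genes passed in both directions. Among 12 tested semaphorins, netrins, slits and their receptors, the netrin receptor genes Unc5b (89.4 against 41.6 CPM, log2 1.09) and Unc5c (101 against 42.8 CPM, log2 1.24) were higher, and Sema3e (log2 -1.39) and Ntng1 (log2 -1.24) were lower. Of 8 tested ephrin and Eph receptor genes outside the rule, 4 were lower and none higher: Epha4, Epha5, Epha7 and Efnb2, with log2 differences from -0.83 to -0.35. The median of this list was -0.34. In the list of cadherins and adhesion genes, 0 of 15 passed by edgeR or DESeq2, with 2 at an unadjusted edgeR p under 0.05.

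Calcium-binding protein genes were mostly lower, in 9 of 14 tested, with 2 higher and a median of -0.74. The lower ones included Calb1, Calb2, Pvalb, S100b, Vsnl1, Calm2, Ncald and Cabp1, and the higher ones Necab1 and Hpcal1. Calm2, a calmodulin gene, was at 1535 CPM ± 386 in members and 3025 ± 942 in none cells, lower in 8 of 8 replicates (log2 -1.04). Of 25 synaptic vesicle and release genes 4 were lower (Syt7, Cplx1, Cplx2 and Sv2b, of which Cplx2 did not pass without E16 replicate 3) and the synapsin gene Syn2 was higher, with a median of -0.08. In the list of glutamate receptors and transport 2 of 7 were lower: Slc17a7, the vesicular glutamate transporter VGLUT1 gene, at 20.9 against 46.5 CPM (log2 -1.04), and the AMPA receptor gene Gria3 (log2 -1.01).

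Potassium and calcium channel genes passed in both directions. Among 11 potassium channel genes 4 passed: Kcnq3 (129 against 60.0 CPM, log2 1.08) and Kcnc4 (log2 1.21) were higher and Kcna1 and Kcnip4 lower. Among 13 HCN and calcium channel genes 4 passed: Cacna1e and Cacna2d3 were higher (log2 0.55 and 0.63), and Cacna1d and Cacnb3 were lower (log2 -1.11 and -0.53). Of 6 voltage-gated sodium channel genes 0 passed by edgeR or DESeq2, with 2 at an unadjusted edgeR p under 0.05. In the list of GABA, glycine, acetylcholine and purine receptors, 4 genes were tested, Gabra2 was higher (log2 0.88) and P2rx3 lower (log2 -0.41).

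Of 25 neuronal transcription factor genes tested, 9 were higher and 10 lower, with a median of 0.21. Besides Gata3, Etv4 and Tle4, the higher ones included Maf (412 against 210 CPM), Tshz3, Tshz2, Pou4f2 and Sox11. The lower ones were Pou4f1, Prox1, Runx1, Shox2 (139 against 318 CPM), Esrrg, Casz1, Foxp1, Ebf1, Sox4 and Isl1. Of 21 genes of intermediate filaments and axonal cytoskeleton, Prph, Map1b and Dpysl3 were higher and Vim, Gap43, Stmn4, Tubb2b and Mapt lower. Dpysl3, a collapsin response mediator protein gene, did not overlap between the classes, with 869 to 1686 CPM in members and 509 to 816 CPM in none cells (log2 0.72). Gap43, a growth cone protein gene, was lower in 8 of 8 replicates (737 against 1135 CPM, log2 -0.70).

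None cells include cells with Lypd1 and cells with Calb2, so members were also set against 2 narrower references chosen after the data were seen. Against 1044 none cells with a Lypd1 UMI and no Calb2 UMI, 837 of 7096 genes passed, and against 627 none cells with a Calb2 UMI and no Lypd1 UMI, 439 passed. Th was higher against both references (log2 4.93 and 2.09), as were Calca (5.41 and 3.06), Fstl5 (3.05 and 3.76), Iqgap2 (3.98 and 4.83) and Gata3 (1.24 and 1.09). Prph depended on the reference. It was higher against the Lypd1 cells (log2 3.08) and did not pass against the Calb2 cells (log2 -0.13 ± 0.11 SE, edgeR adjusted p = 0.653). Pcdh20 (4.79 and 0.71) differed more from the Lypd1 cells and did not pass against the Calb2 cells (edgeR adjusted p = 0.137). Prox1 was lower against both (log2 -2.49 and -2.47), whereas Ntng1 turned from -1.99 against the Lypd1 cells to 1.33 against the Calb2 cells. Pou4f1 went from log2 -4.39 to 1.31, and the latter did not pass (edgeR adjusted p = 0.419), so its lower level was not seen against the Calb2 cells. The 2 differences were not tested against each other.

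Members of E18 and P1 were compared with members of E16 to ask what changed with age within these cells. The E16 members stood nearer to the threshold of the rule, and the part of this in the changes was not tested. Of 2092 genes tested, 63 passed (3.01%), 24 higher and 39 lower at the later ages. Th was among them. Its E16 sums of 15.5 to 50.2 CPM lay below the E18 and P1 sums of 53.7 to 299 CPM (log2 2.05 ± 0.46 SE, edgeR adjusted p = 0.034), while none cells showed a log2 change of 0.48 that did not pass (adjusted p = 0.203). Slc9a3r1, which encodes a PDZ scaffold protein, went from 35.3 to 152 CPM (log2 2.54, adjusted p = 0.023). Calb2 was also higher (log2 2.01, edgeR adjusted p = 0.028), with 56.2 to 119 CPM at E16 and 107 to 585 CPM later, and it was higher in none cells too (log2 4.08).

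Most of the remaining age changes named by the rule were seen in none cells too. Erh, Fabp3, Cox7c, Ubb, Eif3m and Acyp2 were higher at the later ages in members (log2 1.45 to 2.00) and in none cells (log2 1.03 to 3.22). Fabp3 encodes a fatty acid-binding protein and Cox7c a subunit of cytochrome oxidase. Lower at the later ages were Dcx, the gene of the migration protein doublecortin (381 to 127 CPM, log2 -1.57), Msi2, Btg1, Pnisr, Zmiz1, Kcnq1ot1 and Myo5b, which were all lower in none cells as well (log2 -1.27 to -0.68). Cntn5, a contactin gene, was lower in members (log2 -1.84, edgeR adjusted p = 0.040) and at log2 -0.49 in none cells, which did not pass (edgeR adjusted p = 0.275). Its class by age difference, described next for other genes, passed with log2 -1.32 (edgeR adjusted p = 7.03e-08) and in every fit without 1 replicate. At E16, however, Cntn5 was higher at the base in members (1177 against 294 CPM) and in none cells (1107 against 200 CPM). Members and none cells also held different shares of basal cells in the E16 sums. For Cntn5 a change with age and this mix of positions cannot be told apart here. By the gene lists, Sox11, Ina and Map2 were lower in members at the later ages (log2 -1.14, -0.90 and -0.95). Sox11 was lower in none cells as well (log2 -1.73), while Ina and Map2 were at log2 -0.55 and -0.38 there and did not pass (edgeR adjusted p = 0.055 and 0.132). Prph did not pass in this comparison (log2 0.49, edgeR adjusted p = 0.338).

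For Th the change kept its direction without any 1 replicate (log2 1.81 to 2.54) and passed in 2 of 8 such fits, without E18 replicate 1 and without E18 replicate 2. The count of age changes rested on single replicates, and none of the 20 genes named by the rule passed in every fit without 1 replicate. It was 0 without E16 replicate 2 or without P1 replicate 1, 1 without E16 replicate 3, 316 without E18 replicate 1, and 0 with E18 alone against E16. P1 members did not differ from E18 members in any of 2459 genes by the edgeR test (0.0%), with 107 genes under an unadjusted p of 0.05, and DESeq2 called 0 as well.

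The difference between members and none cells was itself compared between ages with an interaction term. The E16 sums mix apex and base differently in members and none cells, and this fit was not repeated with the libraries apart or with UMI-matched none cells. The E16 members also stood nearer to the threshold of the rule, with 32 of 57 at exactly 3 genes. Of 8739 genes tested 86 passed (0.984%), of which 29 had a larger difference in favour of members at E18 and P1 and 57 a smaller or more negative one. With the size factors of DESeq2 in edgeR the split was 47 and 53. The median over all genes tested was -0.10. Th was among the 29 (log2 1.74 ± 0.45 SE, edgeR adjusted p = 0.020), and so was Gata3 (log2 1.43, adjusted p = 9.97e-12). For Gata3 the change lay in the none cells: members had 683 CPM ± 47.1 (SD, n = 3) at E16 and 540 ± 120 (n = 5) later, and none cells 513 ± 90.4 and 134 ± 62.4.

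Other genes among the largest differences between the classes also separated further. Wnt5a went from 37.2 to 6.57 CPM in none cells and from 129 to 97.7 CPM in members (interaction log2 2.07). Fstl5 went from 20.0 to 4.74 CPM in none cells and from 97.8 to 124 CPM in members (log2 2.12), and Iqgap2 from 7.73 to 0.411 CPM and from 56.3 to 89.9 CPM (log2 3.90). Slc9a3r1 went up in members and from 5.02 to 1.23 CPM in none cells (log2 4.20). The later none-cell levels of these genes rest on few UMIs, 3 for Iqgap2, 8 for Slc9a3r1, 34 for Fstl5 and 48 for Wnt5a, so the sizes of the first 2 are uncertain. For Iqgap2 the ratio of pooled CPM, members to none cells at the later ages, was 195 with an exact 95% interval from 62.4 to 979, for counting error only. The separation in these genes was thus present at E16 in each of the 3 replicates and wider later. Later members also stood further above the threshold of the rule, and the part of this in the wider separation was not tested.

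On the other side stood genes whose later means were higher in none cells and lower or nearly level in members. Vsnl1, a neuronal calcium sensor gene, went from 69.2 to 205 CPM in none cells and from 66.6 to 42.9 CPM in members (interaction log2 -2.22). S100b went from 27.6 to 141 CPM in none cells and from 42.7 to 45.5 CPM in members (log2 -2.17), and Rgs10, which encodes a GTPase-activating protein, from 91.8 to 256 CPM and from 78.0 to 54.4 CPM (log2 -2.01). Pvalb and Calb2 passed in the same direction (log2 -1.69 and -1.54). Of 15 calcium-binding protein genes in this fit, 5 had a more negative difference later and none a more positive one, with a median of -0.49. Without 1 replicate at a time, Slc9a3r1, Iqgap2, Fstl5, Wnt5a, Gata3, Vsnl1, Rgs10, Pvalb and Calb2 passed in every fit, S100b did not pass without E16 replicate 1, Calm2 passed in 1 of 8 fits and Th in 3 of 8 (log2 1.51 to 2.35).

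**Figure D5:**
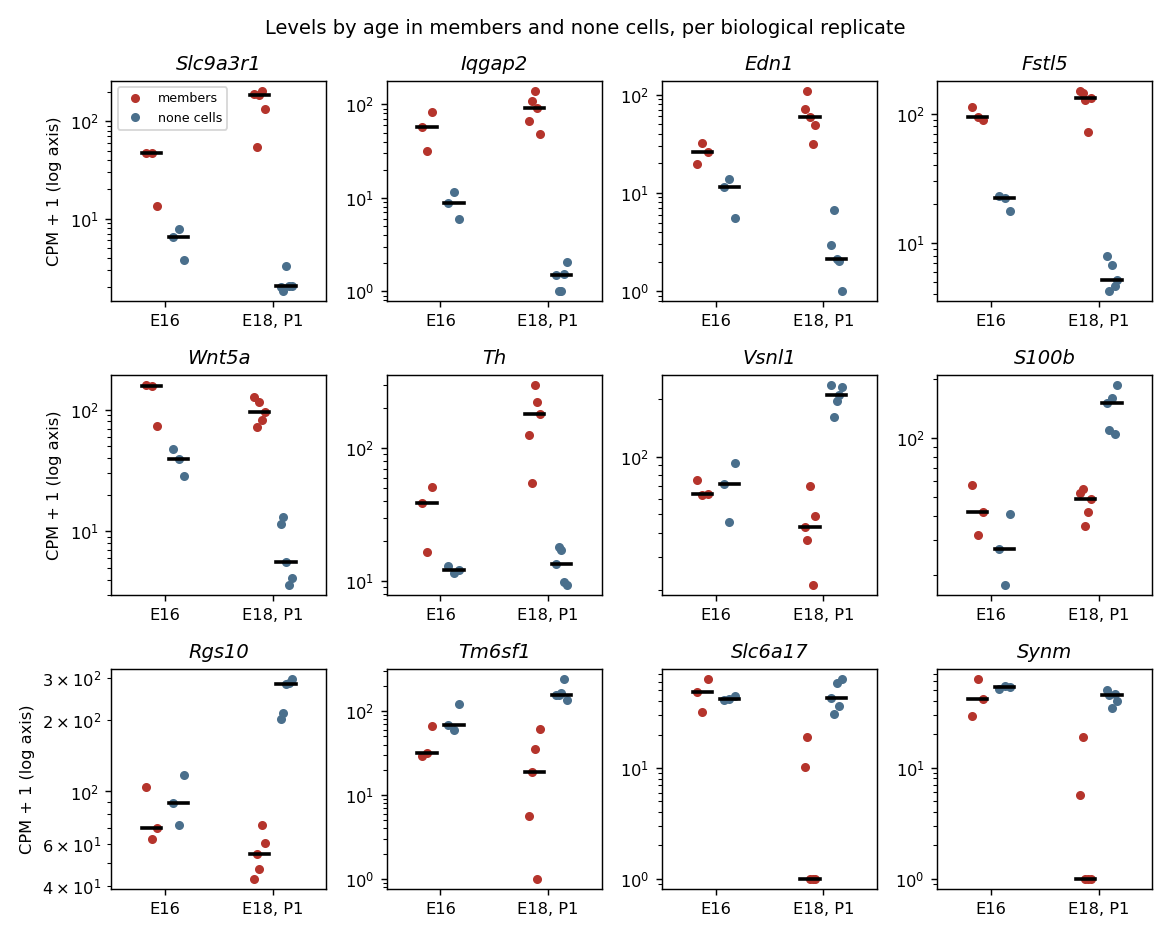
Summed level (CPM + 1, log axis) of 12 genes in members (red) and none cells (blue) at E16 (3 replicates) and at E18 and P1 (5 replicates); black bars are medians. Slc9a3r1, Iqgap2, Edn1, Fstl5, Wnt5a and Th move apart between the classes, and for Vsnl1, S100b and Rgs10 the later none-cell points lie above all E16 none-cell points.

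Apical and basal members of E16 could be compared only on small sums, since the apical library of replicate 1 held 1 member. Of 1397 genes tested 9 passed (0.644%), 1 higher at the apex and 8 lower, against a median of -0.03 over all genes. Cdkn1a, a cell cycle inhibitor gene, was higher at the apex (385 CPM ± 55.3 against 96.1 ± 38.2, log2 1.77, edgeR adjusted p = 0.024), while none cells had 186 and 217 CPM. Cntn5 was lower (294 against 1177 CPM, log2 -2.08), and none cells showed 200 against 1107 CPM. Lsamp, a limbic system cell adhesion gene, was at 116 against 483 CPM in members and 83.7 against 270 CPM in none cells. Itm2b, a gene of the BRI family, was at 265 against 1005 CPM in members and at 306 against 352 CPM in none cells. Nfia, a nuclear factor gene, had 3 UMIs at the apex against 74 at the base, a ratio of pooled CPM of 0.103 (exact 95% interval 0.0208 to 0.313, counting error only). With a block by replicate number 2 genes passed, Lsamp and Cntn5. Cdkn1a, Nfia and Itm2b no longer passed without apical replicate 2, nor Cdkn1a and Nfia without apical replicate 3, nor Cdkn1a without basal replicate 1.

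Markers of other cells were read in the same sums. Glia markers summed to 69.0 to 220 CPM in members and 154 to 281 in none cells, higher in members in 3 of 8 replicates, those of E16. Otic mesenchyme markers summed to 20.3 to 138 and 52.6 to 106, higher in members in 2 of 8. Members were higher in 6 of 8 replicates for the neuroblast and nascent neuron list and in 5 for macrophages. This held in 3 replicates for cycling cells, 2 for red blood cells and 1 for endothelium. Supporting epithelium markers summed to 0 to 46.8 CPM in members and 5.18 to 23.8 in none cells, higher in members in 6 of 8 replicates, with Sox2, Jag1, Cdh1, Otoa, Fgfr3 and Lfng at 0 in members. Of 9 markers of other cranial and somatic sensory neurons in the table, Phox2a, Prdm12, Hmx1, Prrxl1, Scn10a, Trpv1 and Tlx3 were at 0 in members, and Calca, already described, was higher. The ninth, the sodium channel gene Scn11a, did not enter that test and was at 19.0 CPM ± 12.1 (SD, n = 8) in members against 3.05 ± 3.75 in none cells, higher in 7 of 8 replicates (19 UMIs in members). The list summed to 50.2 to 155 CPM in members and 0 to 16.4 CPM in none cells, higher in members in 8 of 8 replicates, and its part in the differences was not tested. Of 8 hair cell genes, Atoh1, Pou4f3 and Gfi1 were at 0 in members, and a 0 in 114 cells does not show absence. The list summed to 287 to 1180 CPM in members and 1915 to 4597 CPM in none cells, higher in members in 0 of 8 replicates. Its 2 tested genes, Myo6 and Pvalb, were both lower in members. Most of the summed level was Pvalb, already described, so the sum says little of the other hair cell genes. Of 12 general spiral ganglion neuron genes, none was higher and Prox1, Mapt and Isl1 were lower, and the list summed to 14712 to 20884 CPM in members and 15630 to 18619 in none cells. Without cells holding UMIs of 2 or more glia or mesenchyme genes, 57 of 114 members and 1698 of 2521 none cells were left, and 303 of 4793 genes passed. The filter thus removed a larger share of members, which were also deeper, and the reason was not tested.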

How the data were processed

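Single cells of 14 droplet libraries were deposited as 1 count table and 1 normalized table. The authors used Cell Ranger 3.0.1, Seurat 3.2 and the mm10 build, per the submitters' processing notes, with no role given for each. The deposited count table holds raw UMI counts, and the deposited normalized table holds natural log values, ln(1 + x), where x is a count scaled to 10000 UMIs in each cell. The count table holds 17999 of the 26655 genes, so counts of 8656 genes (28.2% of UMIs) were recovered from the normalized values, all whole within 0.001, and 0 entries of shared genes differed. A cell's library was read from the number ending its name, matched to sample numbers in the descriptions; the labels do not spell this out. Every deposited cell was used. No cell filter of the authors is given in the sources used here.

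Counts were summed per biological replicate and class (members summed to 55831 to 318816 UMIs in all replicates), rule genes were removed from the tests, and sums were compared in edgeR 4.0.16 (TMM, filterByExpr, quasi-likelihood test, Benjamini-Hochberg adjusted p under 0.05), with DESeq2 1.42.0 as an alternative. CPM is scaled to 1000000 UMIs of the sum, SD is over replicates, and SE is the log2 difference over the root of the F statistic. The script was tested on simulated data (6787 genes): it recovered 86 of 100 genes changed by log2 1 and 90 of 100 changed by log2 2 for members against none cells. The changed genes were drawn only from genes with at least 20 UMIs in the members. Recovery of genes with fewer UMIs was thus not measured, and the false calls are not given here. Named genes are the 15 largest per direction (8 for age, 5 for position) among genes past the threshold, with at least 20 CPM in the higher class and the same sign in at least 7 of 8 replicates or no overlap by age and position, plus up to 5 per gene list. Members and lists were chosen with earlier results of these data known. Shares were compared with exact permutation tests. Apical and basal sums of none cells with the same replicate number correlated at 0.403, 0.278 and 0.449 (members 0.125, 0.042 and 0.145), so the numbers pair the portions in none cells. Of the symbols, 25529 were found in GENCODE M21. A few genes are not reported here.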

Additional observations from a re-analysis of the deposited data

Results flagged for a closer look

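For 16 genes the difference between members and none cells itself differed between E16 and the later ages (E18 and P1), by the interaction term in edgeR. No explanation was tested, and the enzyme changed with age.

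The difference grew in favour of members for Slc9a3r1 (log2 4.20), Iqgap2 (3.90), Anxa2 (3.59), Edn1 (3.03), Nfkbie (2.92), Zfp157 (2.25), Fstl5 (2.12) and Wnt5a (2.07). Anxa2 was at 10.4 CPM in E16 members and 45.3 CPM in later members, and at 22.1 and 5.29 CPM in none cells. Edn1 was at 24.9 and 62.5 CPM in members and at 9.26 and 1.97 CPM in none cells. Nfkbie was at 30.2 and 73.8 CPM in members and at 12.0 and 3.42 CPM in none cells. Zfp157 was at 10.4 and 39.6 CPM in members, from 8 and 24 UMIs, and at 49.9 and 26.9 CPM in none cells, so members stood below none cells at E16 only. Without 1 replicate at a time, Slc9a3r1, Iqgap2, Anxa2, Fstl5 and Wnt5a passed in each of 8 fits. Edn1 did not pass without E16 replicate 1, nor Nfkbie without E18 replicate 1, and Zfp157 passed in 3 of 8 (log2 2.06 to 3.47), not without any single E16 replicate, E18 replicate 1 or E18 replicate 3.

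The difference moved against members for Slc6a17 (log2 -3.52), Synm (-3.32), Arhgap36 (-3.14), Myl1 (-2.70), Tm6sf1 (-2.41), Vsnl1 (-2.22), S100b (-2.17) and Rgs10 (-2.01). Of these, the values of Slc6a17, Synm and Arhgap36 rest on 3, 2 and 3 UMIs in later members. The ratio of pooled CPM, members to none cells at the later ages, was 0.131 for Slc6a17 (exact 95% interval 0.0269 to 0.387), 0.0850 for Synm (0.0103 to 0.310) and 0.367 for Arhgap36 (0.0745 to 1.10), counting error only. Tm6sf1 was at 41.7 and 23.3 CPM in members and at 82.5 and 170 CPM in none cells. Myl1 was higher in members at both ages (69.9 against 5.81 CPM at E16, 237 against 72.9 later), and the later member mean holds the highest replicate at 878 CPM and the lowest at 11.5 CPM. Without E16 replicate 3 its value was -0.89 (adjusted p = 0.938). Leaving out 1 replicate also ended the call of Slc6a17 without E16 replicate 3, of Tm6sf1 without E16 replicate 3 or E18 replicate 1, and of S100b without E16 replicate 1. Synm passed in 3 of 8 such fits, without E16 replicate 1, E18 replicate 2 or E18 replicate 3 (log2 -4.11 to -3.01 over all 8), and Arhgap36 in 1 of 7, without E18 replicate 3 (log2 -3.83 to -2.77), while Vsnl1 and Rgs10 passed in 8 of 8.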

How the results depend on the processing

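For members against none cells (644 genes), the count was 408 with DESeq2, 1053 with no filter on low counts, 192 with no replicate block, 390 (of 3562 tested) with UMI-matched none cells, 301 with E16 replicates only, 303 without cells holding UMIs of 2 glia or mesenchyme genes, and 450 to 673 without 1 replicate. The 644 genes kept their sign with DESeq2, with its size factors in edgeR, with no replicate block and with UMI-matched none cells. Of 84 named genes, 66 passed in every fit without 1 replicate that tested them. Isl1, Igfbpl1, Dcn, Qdpr, Spr, Epha5, Epha7, Kcnc4, Kcnip4, Cacna1e, Slc17a7, Gabra2, P2rx3, Syn2, Cplx2, Pfkl, Eno1 and Btg2 did not. Among the 66, Th entered 6 of the 8 fits and Pcsk5 7. The sign turned at E16 only for Isl1 (0.015) and S100b (0.33), against the Lypd1 cells for Dcn (0.26), and against the Calb2 cells for Pou4f1 (1.31), Prph (-0.13), Ntng1 (1.33), Igfbpl1 (-0.36), S100b (0.51) and Gabra2 (-0.12). For E18 and P1 against E16 in members (63 genes, 24 higher and 39 lower), it was 169 with no filter, 0 with E18 alone, and 0 to 316 without 1 replicate, and DESeq2 gave 31 and 31. For P1 against E18 (0), no filter gave 3. For the class by age difference (86), DESeq2 gave 31, no filter 48, no replicate block 8, and fits without 1 replicate 42 to 92, and 11 of its 33 named genes passed in every fit without 1 replicate. For apex against base in members (9), DESeq2 gave 1, the replicate block 2, and fits without 1 replicate 5 to 16. The share of members by age differed by 1.78 percentage points at 3000 UMIs (exact permutation p = 0.0357), by 2.65 at 5000 UMIs (p = 0.0714) and by -1.39 with at least 2 genes, against 2.03. The cause of these shifts was not tested. Across ages, equal replicate numbers denote separate litters and pair nothing. With 114 members and sums down to 55831 UMIs, genes low in members could not be tested, and a missing call shows no equality.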

Other observations

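Immediate early and stress genes, glycolysis genes and several abundant transcripts also differed between members and none cells. Fos, an immediate early transcription factor gene, was at 294 CPM ± 150 (SD, n = 8) in members and 119 ± 48.2 in none cells, higher in 8 of 8 replicates (log2 1.23 ± 0.14 SE), and its interaction with age passed (log2 1.05, edgeR adjusted p = 0.0017). That interaction did not pass without E16 replicate 1 or without P1 replicate 1 (largest edgeR adjusted p = 0.11). Ier3 and Btg2 were higher too (log2 1.18 and 1.03), whereas Jun was lower (162 against 305 CPM, log2 -1.17). These were the 4 genes that passed among 14 tested, with a median of 0.16. Against the none cells with Calb2 and no Lypd1, Fos was higher (log2 1.26) and Jun did not pass (log2 -0.03, edgeR adjusted p = 0.976).

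Of 14 glycolysis genes tested, Pfkl, a phosphofructokinase gene, was higher (96.8 against 52.4 CPM, log2 0.71) and Tpi1 and Eno1 were lower (log2 -0.42 and -0.52), with a median of -0.10. Among abundant genes picked after their values were seen, Itm2b was at 1140 CPM in members and 422 in none cells (log2 1.33), and Spp1, which encodes osteopontin, at 2437 against 4374 CPM (log2 -0.91). The neuroblast marker Igfbpl1 was at 270.0 against 189 CPM (log2 0.40), higher in 5 of 8 replicates, and did not pass against UMI-matched none cells (edgeR adjusted p = 0.561).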
